A study of Mus musculus with 6 samples.

Results

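The interferon-stimulated genes followed here are 39 genes that cells switch on when interferon binds its receptor, described in native cardiac fibroblasts (CFs) of WT and CharmeKO mice. They were picked by gene symbol from the 49548 genes of the deposited count table, leaving out chemokines, MHC genes and immunity-related GTPases, and all 39 were found, each on 1 row. *Charme* is a long non-coding RNA of mouse skeletal and cardiac muscle, and CharmeKO mice carry a PolyA signal inserted in its locus, here on a C57BL/6J background. Native CFs were taken from the dissociated hearts of mice aged 5 weeks, with no treatment, by depletion of hematopoietic lineage cells, which leaves the non-cardiomyocyte cells of the heart together rather than fibroblasts alone. There were 3 WT and 3 CharmeKO libraries of poly(A) RNA, 1 column of raw read counts each, with 9595701 to 42101393 counted reads a library. The labels name these cells native CFs yet also list a growth medium, whereas the methods describe them as freshly isolated, and the name native CFs is kept here.

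Interferons are secreted signals of virus infection. Type I interferons (alpha and beta) bind the receptor formed by IFNAR1 and IFNAR2, the kinases JAK1 and TYK2 are then activated, and the factor ISGF3, which includes STAT2 and IRF9, binds a DNA element called ISRE in front of its target genes. Type II interferon (gamma) acts through another receptor, formed by IFNGR1 and IFNGR2. The target genes encode proteins that block virus entry, RNA translation and genome copying, and others that sense foreign nucleic acid or switch the pathway off again. Fibroblasts and endothelial cells keep a low level of many of these genes without infection, through what is called tonic signalling. The comparison asks whether the level of this program differed between the hearts of both genotypes. *Charme* itself had 26, 15 and 4 counts in the WT libraries, by replicate number, and 7, 0 and 0 counts in the CharmeKO libraries, so that it was low in all libraries and lower, for its depth, in each CharmeKO library.

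All 39 genes passed the filter of at least 10 counts in at least 2 libraries, and none passed the threshold between CharmeKO and WT in edgeR's quasi-likelihood test (Benjamini-Hochberg adjusted p under 0.05), against 0.83% of the 15789 tested genes, or 0.412% lower and 0.418% higher in CharmeKO. Without adjustment, 4 of the 39 had a p under 0.05, against 12.8% of all tested genes, of which 2 were lower (6.87% of all tested genes) and 2 higher (5.9%) in CharmeKO. DESeq2 on the same genes called 2, *Ifit2* and *Mx2*, both lower, where it called 2.5% of all tested genes, and 1.52% as lower. Of the 39 genes, 22 had a higher and 17 a lower fitted value in CharmeKO, where 48.8% of all tested genes were lower, with log2 fold changes between −0.50 and 0.44. Their median log2 fold change was 0.046, beside 0.0096 for all tested genes, and it was −0.017 without WT replicate 3 and −0.0047 without CharmeKO replicate 3. The 95% interval of the fold change lay wholly within 2-fold either way for 36 of the 39 genes (92.3%, against 68.0% of all tested genes), and within 1.5-fold for 23. The 3 genes with wider intervals were *Mx1* and *Oas3*, which had 8 to 41 counts in each library, and *Ifitm1*.

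In 3 of the 39 genes, *Ifit2*, *Mx2* and *Stat2*, all CharmeKO libraries lay below all WT libraries, a pattern that 8.59% of the tested genes had. In 2, *Oas2* and *Isg15*, they all lay above, as in 9.57% of the tested genes. Counts of 3 and 2 of 39 are near these shares, and the 5 genes are described with the others of their class.

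**Figure D1:**
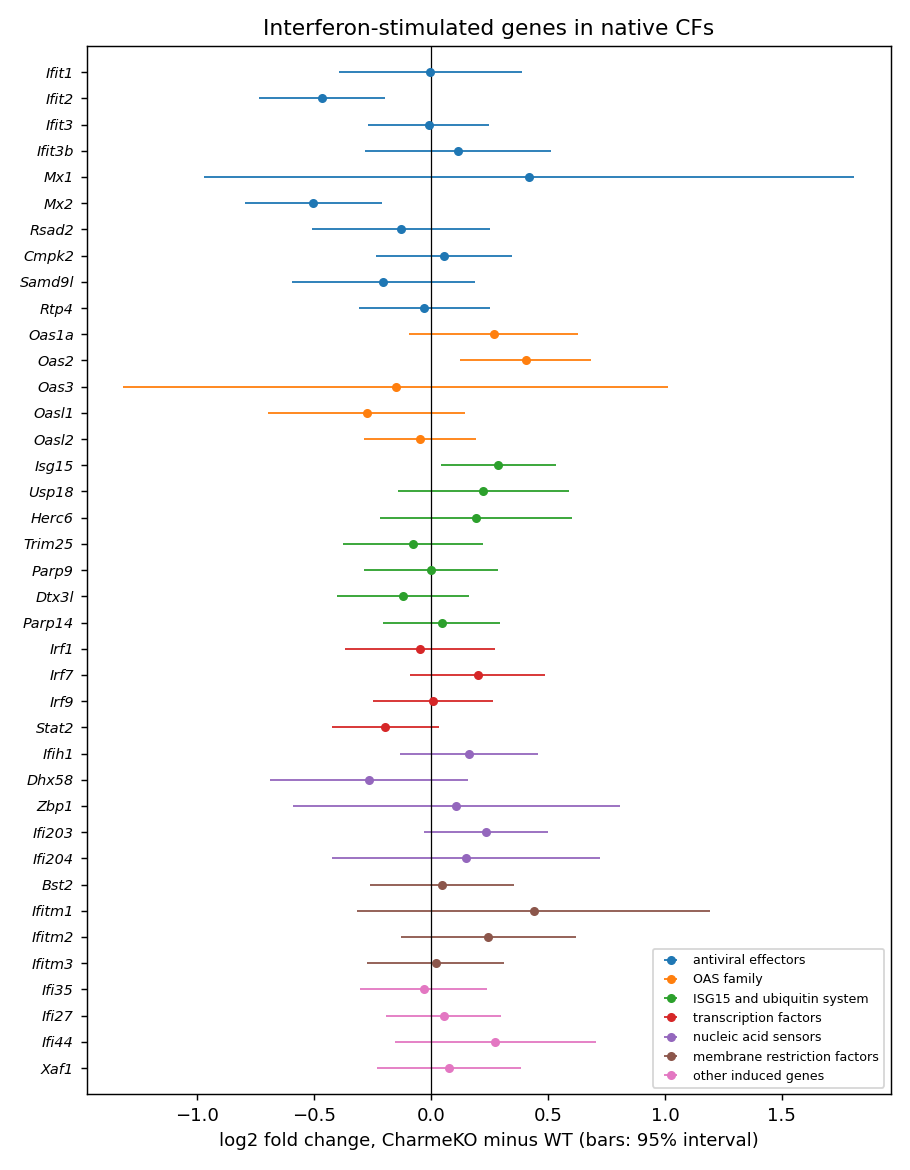
Log2 fold change between CharmeKO and WT (horizontal axis, CharmeKO minus WT) of the 39 interferon-stimulated genes (vertical axis), as points with 95% intervals from edgeR's quasi-likelihood fit on 3 libraries a group, coloured by role class. The intervals of 4 genes, *Ifit2*, *Mx2*, *Oas2* and *Isg15*, lie clear of 0, and 0 genes passed the threshold after adjustment.

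Levels were compared between genes as mean CPM per kb of exon, since a longer transcript collects more reads. CPM is the count per 1e6 reads of the normalized library. On this scale 32 of the 39 genes lay above the median of all tested genes, 3.40 CPM per kb, and their own median was 10.7. *Ifitm3*, which blocks the entry of enveloped viruses at endosomes, stood first at 811 CPM per kb, above 99.8% of the tested genes. *Irf1* followed at 164, *Bst2* at 141, *Ifitm2* at 134 and *Isg15* at 86.8 CPM per kb. At the other end, *Zbp1* had 0.845, *Mx1* 0.199 and *Oas3* 0.120 CPM per kb. The most and the least abundant of the 39 thus differed widely in this mixed preparation, and 7 lay below the median gene.

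**Figure D2:**
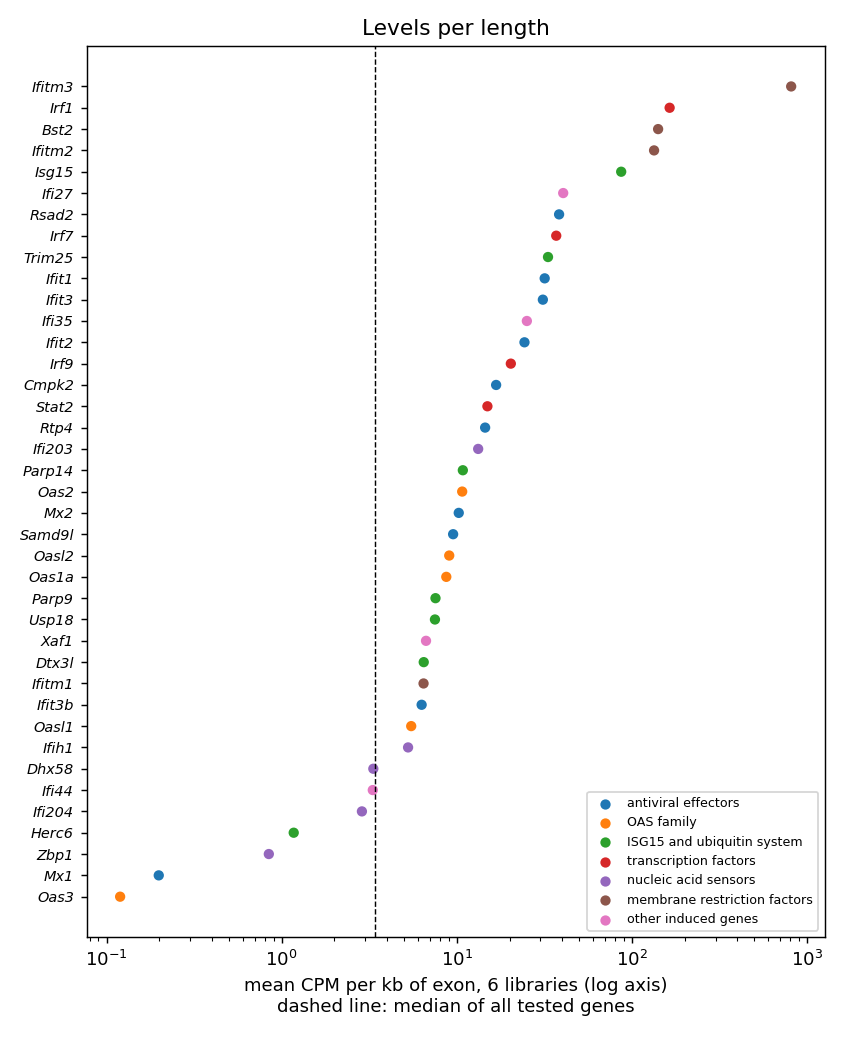
Mean level over the 6 libraries (horizontal axis, CPM per kb of exon, log axis) of each interferon-stimulated gene (vertical axis, in order of level), coloured by role class, with the median of all tested genes as a dashed line at 3.40 CPM per kb. *Ifitm3* stands apart at 811, and 7 genes lie left of the line.

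The class of antiviral effectors held 10 genes, of which 0 passed the threshold, 3 had a higher and 7 a lower fitted value in CharmeKO. Among them are the 4 IFIT genes, whose proteins bind viral RNA at its cap or bind each other, and which stand next to one another on chromosome 19. *Ifit2* (ENSMUSG00000045932) was at 112, 122 and 98.9 normalized CPM in WT replicates 1, 2 and 3, and at 75.4, 90.0 and 75.5 CPM in CharmeKO replicates 1, 2 and 3. Each CharmeKO library was thus below each WT library. The log2 fold change of *Ifit2* was −0.47 (SE 0.12, 95% interval −0.74 to −0.20, edgeR adjusted p = 0.140), and the gene passed the threshold in DESeq2 (adjusted p = 0.0306) and in edgeR when genes with few counts were kept (adjusted p = 0.0248).

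In the neighbours of *Ifit2* the groups overlapped. *Ifit1*, which binds RNA that lacks the host's cap methylation, was at 91.4, 103.9 and 57.1 CPM in WT and at 83.5, 87.5 and 82.3 CPM in CharmeKO, with WT replicate 3 lowest and WT replicate 2 highest. *Ifit3* was at 55.4, 58.9 and 48.3 CPM in WT and at 52.8, 59.1 and 49.9 CPM in CharmeKO, with groups that overlapped. *Ifit3b*, its near-identical copy, ranged from 10.2 to 15.0 CPM over the 6 libraries. As 1700 bases of the *Ifit3* and *Ifit3b* transcripts align at 97.8% identity, reads from one could be lost or counted on the other, and their separate levels are uncertain.

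The ratio of *Ifit2* to its neighbours within each library does not depend on the normalization. For *Ifit2* over *Ifit3* counts, the log2 ratio was 1.01, 1.05 and 1.03 in WT libraries, by replicate number, and 0.51, 0.61 and 0.60 in those of CharmeKO. WT averaged 1.03 ± 0.02 and CharmeKO 0.57 ± 0.05 (SD of 3 libraries each), or −0.46 between them, and a two-sided exact permutation test gave p = 0.1, which is as low as this design can go. The log2 ratio of *Ifit2* to *Ifit1* differed by −0.51, and that of *Ifit2* to *Ifit3b* by −0.58, with the same exact p and also without overlap between groups. These 3 ratios were chosen after the values of *Ifit2* were seen, and the adjusted p over the 3 was 0.1 in each exact test. They share the counts of *Ifit2*, so they are not 3 separate observations. As *Ifit2* was already known to lie apart and its neighbours to overlap, separated ratios were likely beforehand and add no support.

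The stretches in front of the IFIT genes, chosen after their values were seen, show where the genes next to *Ifit2* hold the element that ISGF3 binds. The ISRE core was searched as GAAANNGAAA on both strands, which reads TTTCNNTTTC when it lies on the other strand, from 250 bases before to 50 after each annotated start in RefSeq's promoter table (GRCm38.p6, another build than the counts). *Ifit1*, *Ifit3* and *Ifit3b* each held 2 cores, and the window of *Ifit2* held 0 at both of its annotated starts, which says only that these letters are not in those windows. The 5′ to 3′ sequences on the gene's strand have the cores in capitals.
Ifit1 (chr19:34640773-34640825, plus strand, −116 to −64 from the start): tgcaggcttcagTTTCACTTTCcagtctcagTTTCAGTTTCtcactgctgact
Ifit3 (chr19:34583361-34583428, plus strand, −168 to −101): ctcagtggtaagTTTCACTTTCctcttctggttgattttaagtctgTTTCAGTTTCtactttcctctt
Ifit3b (chr19:34607757-34607824, plus strand, −200 to −133): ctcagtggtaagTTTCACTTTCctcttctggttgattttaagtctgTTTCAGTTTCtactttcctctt
The printed stretches of *Ifit3* and *Ifit3b* are the same, base for base.

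Among the other antiviral effectors, *Mx2* (ENSMUSG00000023341), of the dynamin-like GTPase family that traps virus particles, was at 38.3, 50.6 and 41.5 CPM in WT and at 29.9, 29.0 and 33.1 CPM in CharmeKO. The groups did not overlap, and WT replicate 2 was the highest library. The log2 fold change was −0.50 (SE 0.13, 95% interval −0.80 to −0.21, edgeR adjusted p = 0.145), and *Mx2* passed the threshold in DESeq2 (adjusted p = 0.0489) and with genes of few counts kept (adjusted p = 0.0222). Both Mx genes of C57BL/6 and most other laboratory strains carry mutations that leave no functional protein. *Mx1*, the paralog, had 30, 8 and 9 counts in WT and 35, 16 and 20 in CharmeKO.

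*Rsad2* encodes viperin, which makes a chain-terminating nucleotide, and *Cmpk2* next to it encodes a kinase that supplies the precursor. *Rsad2* was the most abundant gene of the class by CPM, at 172, 187 and 163 CPM in WT and at 131, 211 and 135 CPM in CharmeKO. CharmeKO replicate 2 was the highest and the other CharmeKO libraries the lowest, and the log2 fold change was −0.13 (SE 0.17, edgeR adjusted p = 0.816). It was −0.38 without CharmeKO replicate 2, −0.0042 without CharmeKO replicate 1 and −0.023 without CharmeKO replicate 3. *Cmpk2* had the same order within CharmeKO, at 63.6, 84.5 and 65.6 CPM, with 61.5 to 73.8 CPM in WT. *Samd9l*, a restriction factor of poxviruses, was at 33.8 CPM in CharmeKO replicate 3 and at 50.02 to 60.4 CPM in the other 5 libraries. *Rtp4* ranged from 28.1 to 35.0 CPM, with overlap between groups.

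The OAS family makes 2′-5′-linked oligoadenylates that activate RNase L, an activity that mouse OASL1 lacks. Of the 5 genes, 2 had a higher and 3 a lower fitted value in CharmeKO, and 0 passed the threshold. *Oas2* (ENSMUSG00000032690) was at 37.3, 46.8 and 39.1 CPM in WT and at 48.6, 58.7 and 56.1 CPM in CharmeKO, without overlap. Its log2 fold change was 0.41 (SE 0.13, 95% interval 0.13 to 0.68, edgeR adjusted p = 0.224). *Oasl2*, the most abundant of the family by CPM, was at 64.0, 58.8 and 53.0 CPM in WT and at 56.0, 55.5 and 58.9 CPM in CharmeKO (log2 fold change −0.05 with an SE of 0.11, edgeR adjusted p = 0.892). *Oas1a* ranged from 13.2 to 20.1 CPM and *Oasl1* from 10.4 to 19.0 CPM, both with overlap, and *Oas3* from 0.647 to 1.08 CPM. *Oas1a* shares 97.5% identity over 1860 bases with *Oas1g*, which was at 1.31 CPM on average, so that a part of its reads is uncertain.

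ISG15 is a ubiquitin-like protein that is attached to other proteins after interferon, with HERC6 as its ligase in mice, TRIM25 as an E3 ligase of RIG-I, and USP18 as the enzyme that removes it and shuts down the receptor. PARP9 and DTX3L work as a pair, and PARP14 adds ADP-ribose to proteins. In this class of 7 genes, 4 had a higher and 3 a lower fitted value in CharmeKO, and 0 passed the threshold. *Isg15* (ENSMUSG00000035692) was at 60.5, 64.4 and 52.1 CPM in WT and at 75.5, 70.2 and 70.9 CPM in CharmeKO, with all CharmeKO libraries above all WT libraries. The log2 fold change was 0.29 (SE 0.11, 95% interval 0.041 to 0.53, edgeR adjusted p = 0.316). As 482 bases of the *Isg15* transcript align to another annotated gene at 95.2% identity, a part of its reads is uncertain.

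*Trim25*, the most abundant of the class by CPM, was at 186, 219 and 183 CPM in WT and at 158, 209 and 191 CPM in CharmeKO (log2 fold change −0.077 with an SE of 0.14, edgeR adjusted p = 0.865). *Usp18* ranged from 17.5 to 20.4 CPM in WT and from 17.3 to 26.6 CPM in CharmeKO, and *Herc6* from 8.60 to 11.5 and from 9.51 to 13.4 CPM. *Parp9* lay between 31.1 and 40.8 CPM, *Dtx3l* between 33.8 and 44.1 CPM and *Parp14* between 89.9 and 109.6 CPM over the 6 libraries. In each of these 5 genes the groups overlapped. The stretch in front of *Isg15* is shown since it held 3 cores, the most of the 28 genes with an entry, in an overlapping run given in capitals.
Isg15 (chr4:156200863-156200908, minus strand, −90 to −45, GRCm38.p6): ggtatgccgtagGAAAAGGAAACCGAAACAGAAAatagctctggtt

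**Figure D3:**
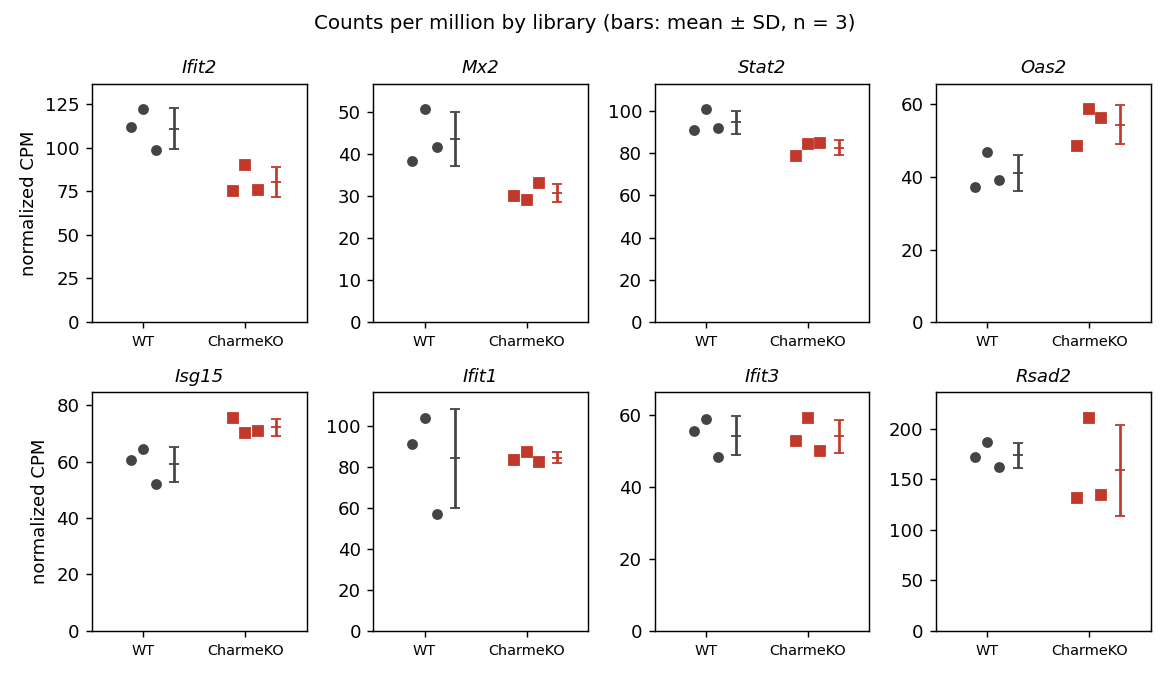
Normalized CPM (vertical axes, from 0) of 8 interferon-stimulated genes in each WT (circles) and CharmeKO (squares) library, with the mean ± SD of 3 libraries beside the points. The groups are apart for *Ifit2*, *Mx2*, *Stat2*, *Oas2* and *Isg15*, and overlap for *Ifit1*, *Ifit3* and *Rsad2*, where CharmeKO replicate 2 is the highest at 211 CPM.

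Among the transcription factors, *Irf1*, which is also an immediate response gene to gamma interferon and to cell stress, was the most abundant. It was at 601, 785 and 603 CPM in WT and at 625, 589.6 and 709.7 CPM in CharmeKO (log2 fold change −0.047 with an SE of 0.15, edgeR adjusted p = 0.923). *Irf7*, the factor that amplifies type I interferon production, was at 121, 141 and 128 CPM in WT and at 126, 155 and 166 CPM in CharmeKO. *Irf9*, the DNA-binding part of ISGF3, ranged from 96.4 to 123 CPM. *Stat2* (ENSMUSG00000040033) was at 91.1, 100.7 and 91.9 CPM in WT and at 78.7, 84.4 and 84.7 CPM in CharmeKO, with no overlap between groups. Its log2 fold change was −0.20 (SE 0.10, 95% interval −0.42 to 0.032, edgeR adjusted p = 0.466). Of these 4 genes, 2 had a higher and 2 a lower fitted value in CharmeKO.

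The nucleic acid sensors include *Ifih1* (MDA5) and *Dhx58* (LGP2), which bind double-stranded RNA, *Zbp1*, which binds left-handed nucleic acid, and *Ifi203* and *Ifi204* of the AIM2-like family. Of these 5 genes, 4 had a higher and 1 a lower fitted value in CharmeKO, with 0 past the threshold. *Ifi203* was at 79.3, 78.9 and 86.6 CPM in WT and at 105.9, 100.1 and 81.8 CPM in CharmeKO. CharmeKO replicate 3 lay within the WT range, and the log2 fold change was 0.24 (SE 0.12, edgeR adjusted p = 0.451). *Ifih1* ranged from 33.6 to 48.5 CPM, *Dhx58* from 7.54 to 12.6 CPM and *Zbp1* from 2.02 to 3.77 CPM, all with overlap. *Ifi204* ranged from 7.34 to 13.8 CPM, and as 1363 bases of its transcript align to *Ifi211* at 96.9% identity, its level is uncertain.

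All 4 membrane restriction factors had a higher fitted value in CharmeKO, with 0 past the threshold and overlap between groups in each, and that of *Ifitm3* was −0.074 when WT replicate 1 was left out and −0.046 when CharmeKO replicate 3 was. *Ifitm3* was at 472, 581 and 585 CPM in WT and at 532, 526 and 602 CPM in CharmeKO (log2 fold change 0.019 with an SE of 0.13, 95% interval −0.27 to 0.31, edgeR adjusted p = 0.971). *Ifitm2* was at 58.4 CPM in WT replicate 1 and at 84.0 to 105.6 CPM in the other libraries. *Ifitm1* ranged from 3.64 to 9.85 CPM and was lowest in WT replicates 1 and 3. *Bst2* encodes tetherin, which holds budding virus on the cell surface, and ranged from 109 to 157 CPM. The IFITM genes have processed copies in the genome, the longest match to *Ifitm2* being 432 bases at 96.99% identity. Reads from such stretches could be lost or counted on a copy.

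The other induced genes were *Ifi35*, *Ifi27*, *Ifi44* and *Xaf1*, of which 3 had a higher and 1 a lower fitted value in CharmeKO. *Ifi27*, which encodes a small mitochondrial protein, was at 60.7, 59.7 and 54.2 CPM in WT and at 56.0, 58.8 and 66.9 CPM in CharmeKO (log2 fold change 0.055 with an SE of 0.11, edgeR adjusted p = 0.883). *Ifi35* ranged from 37.0 to 47.4 CPM, *Xaf1*, a partner of the apoptosis inhibitor XIAP, from 25.8 to 35.8 CPM, and *Ifi44* from 14.5 to 28.6 CPM. *Ifi44* was highest in CharmeKO replicate 2 and lowest in WT replicate 2.

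RefSeq's promoter table has an entry for 28 of the 39 genes, and 13 of these (46.4%) hold at least 1 ISRE core in the window of any annotated start, against 3.99% of the 27025 genes of the table. The share is given as a description of a set chosen for its response to interferon. The median log2 fold change was 0.047 over the 13 genes with a core, from −0.20 to 0.29, and −0.032 over the 15 without one, from −0.47 to 0.44. *Bst2* and *Oas1a* are shown as further cases in which overlapping cores lie upstream of the start, far from it in one and beside it in the other.
Bst2 (chr8:71537575-71537614, minus strand, −142 to −103, GRCm38.p6): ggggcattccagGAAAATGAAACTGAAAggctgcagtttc
Oas1a (chr5:120907526-120907557, minus strand, −32 to −1, GRCm38.p6): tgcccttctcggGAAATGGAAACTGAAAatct
The levels of both genes overlapped between WT and CharmeKO, as given above.

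Across the libraries, the 39 genes did not move as a block with the genotype. The sum of their normalized CPM was 3138, 3573 and 3114 in WT libraries, by replicate number, and 3086, 3345 and 3390 in CharmeKO libraries, with overlap between groups. The most abundant genes weigh most in this sum, with *Irf1* at 652 and *Ifitm3* at 550 CPM on average. The median deviation from each gene's mean on log2(CPM + 1) was 0.034, 0.026 and −0.059 in WT and −0.059, 0.090 and −0.011 in CharmeKO, in the same order. WT replicate 2 and CharmeKO replicate 2 each held the highest value in 10 of the 39 genes, where they did so in 21.2% and 19.4% of all tested genes. The lowest value fell to CharmeKO replicate 1 in 12 genes (14.4% of all tested genes) and to WT replicate 3, which had the lowest depth, in 11 (21.5%). Each genotype thus held libraries with a positive and with a negative median deviation.

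**Figure D4:**
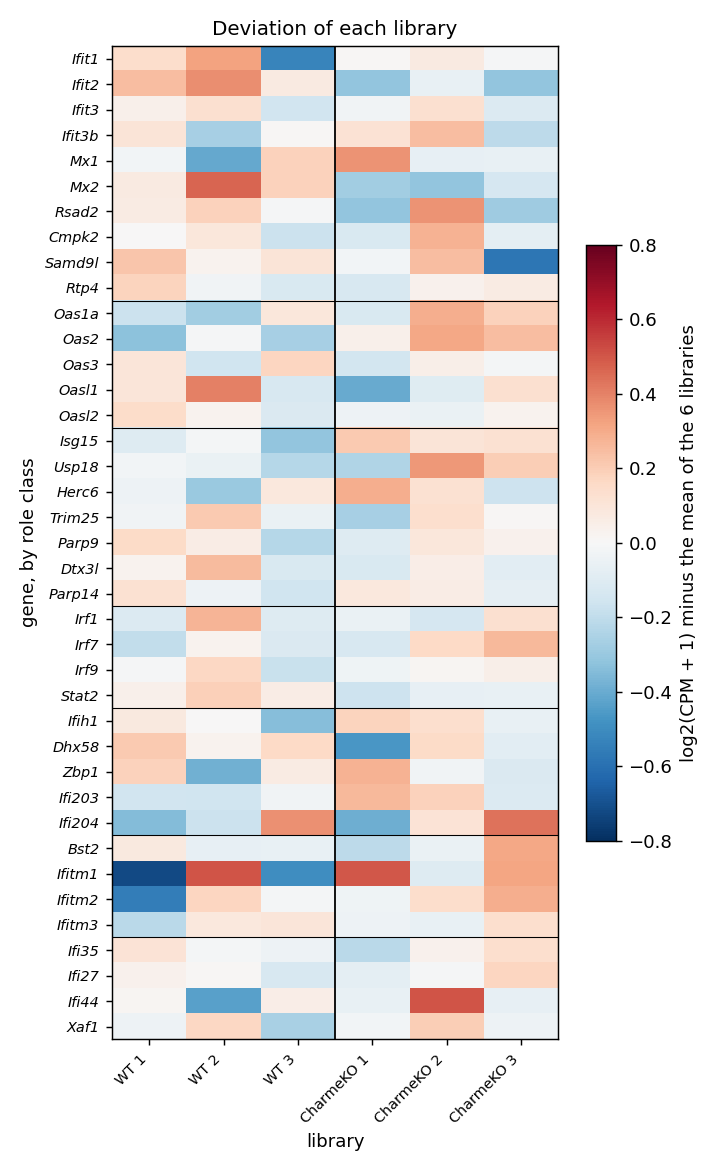
Deviation of log2(CPM + 1) in each library (columns) from the mean of the 6 libraries for each interferon-stimulated gene (rows, by role class), red above and blue below the mean. High and low genes occur in both genotypes, and CharmeKO replicate 2 has the highest median deviation at 0.090.

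Genes upstream of and beside these were taken from lists of the pathway written by gene family. Of 21 interferon genes in the table, 18 had 0 counts in all 6 libraries, where 0 allows up to 3 counts a library, or 0.0713 to 0.313 CPM. *Ifnb1* had 2 counts in 1 WT library and *Ifnz* at most 6 counts. *Ifng*, the gene of gamma interferon, which lymphocytes and natural killer cells make, had 0 counts in each WT library and 9, 7 and 5 counts in CharmeKO replicates 1, 2 and 3. This is 0 of 79632590 reads in WT and 21 of 81483763 in CharmeKO, pooled over libraries. Against a limit of 3 counts over the WT group, the ratio is 6.84-fold. It is not a lower bound, as the counting error of the 21 counts and the spread between libraries are left out. *Ifng* was singled out after its counts were seen, and it was below the filter. In edgeR with such genes kept its adjusted p was 0.197. An exact permutation test gave a two-sided p = 0.1, the lowest it can give. Of all 49548 genes in the table, 6 had 0 counts in WT and at least 5 in each CharmeKO library, and 1 had the reverse pattern. *Ifng* is among the 6, and the limit of 5 equals its own lowest CharmeKO count, so this number is no separate evidence on *Ifng*.

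All 6 receptor genes were expressed and 0 passed the threshold. Over all tested genes, all CharmeKO libraries lay above all WT libraries in 9.57% and below them in 8.59%. Of the 6 receptor genes, the groups did not overlap in 1, *Il10rb*, a shared receptor chain of type III interferon and interleukin-10. This gene is named after its values were seen. It was at 32.3, 35.2 and 24.9 CPM in WT and at 46.2, 44.0 and 41.4 CPM in CharmeKO (log2 fold change 0.50 with an SE of 0.14, edgeR adjusted p = 0.166), and it passed with genes of few counts kept (adjusted p = 0.0198 in edgeR). *Ifnar1* had 89.5 ± 5.89 CPM in WT and 98.6 ± 4.33 CPM in CharmeKO (SD of 3 libraries) (log2 fold change 0.14 with an SE of 0.11, edgeR adjusted p = 0.631). *Ifnar2* was at 44.96 ± 0.704 and 44.7 ± 2.89 CPM (log2 fold change −0.0082 with an SE of 0.11, edgeR adjusted p = 0.983). Among 17 genes of JAK-STAT signalling and its inhibitors, 8 had a higher and 9 a lower fitted value in CharmeKO, and 0 were called. Of 15 tested genes of nucleic acid sensing, 4 had a higher and 11 a lower fitted value, also with 0 called.

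Of 43 other tested interferon-stimulated genes, 1 passed the threshold, against 0.83% of all tested genes (0.412% lower in CharmeKO). All CharmeKO libraries lay below all WT libraries in 6 of the 43, against 8.59% of all tested genes. They lay above in 4, against 9.57%. The gene past the threshold was *Apobec3*, a cytidine deaminase that restricts retroviruses. It was at 34.5, 45.8 and 32.8 CPM in WT and at 24.0, 23.1 and 19.5 CPM in CharmeKO, so that each CharmeKO library was lower. *Apobec3* fell by 0.77 on the log2 scale (SE 0.15, 95% interval −1.11 to −0.43, edgeR adjusted p = 0.0452). In the main edgeR fit the call is close to the threshold. DESeq2 also made the call (adjusted p = 0.00127). So did edgeR with genes of few counts kept (adjusted p = 4.3e-05) and with the replicate number as a block (adjusted p = 0.0171). The other normalizations in edgeR kept it narrowly (adjusted p = 0.0425 and 0.0470). The call held without WT replicate 2 (adjusted p = 0.0437 in edgeR). It was lost without each of the other 5 libraries, where the adjusted p lay between 0.0629 and 0.179. It was also lost with a filter of 10 counts in 5 libraries (log2 fold change −0.77, adjusted p = 0.0516 in edgeR). The same held with a model term that separates libraries with and without *Xist* (log2 fold change −0.78, adjusted p = 0.0914 in edgeR). The fold in these last fits was as large as in the first. Over the 81 tested genes of these lists, 42 had a higher and 39 a lower fitted value, with a median log2 fold change of 0.0065. Of the 81, *Apobec3* was the 1 called, and all CharmeKO libraries lay below all WT libraries in 8 and above them in 7.

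Markers of other cells differed between libraries. All 10 cardiomyocyte genes of the list had a higher fitted value in CharmeKO, with a sum of 297 to 379 CPM in WT and 427 to 646 CPM in CharmeKO. Of these, 2 were called, *Myh6* and *Tnni3*, against 0.418% of all tested genes called higher. All CharmeKO libraries lay above all WT libraries in 7 of the 10, against 9.57% of all tested genes. In edgeR, 8 had an unadjusted p under 0.05, against 12.8%. Of 17 leukocyte genes, 12 were tested and 0 called, with a sum of 40.9 to 80.3 CPM in WT and 52.9 to 74.8 CPM in CharmeKO, and the plasmacytoid dendritic cell marker *Siglech* had at most 2 counts. The labelled cell type was checked with 10 fibroblast genes, which were all detected. They summed to 31958 to 38239 CPM in WT and 30142 to 35293 CPM in CharmeKO, with *Gsn* alone at 17340 to 26456 CPM. Of these 10 genes 0 were called and 4 had an unadjusted p under 0.05, with log2 fold changes of −0.77 for *Col1a1*, −0.54 for *Col1a2*, −0.63 for *Mfap5* and 0.29 for *Dcn*. The 10 endothelial genes summed to 8165 to 9798 CPM in WT and 8462 to 10725 CPM in CharmeKO, with 0 called. Of these 10 genes, 6 had a higher and 4 a lower fitted value in CharmeKO. All CharmeKO libraries lay above all WT libraries for *Kdr*, *Tek*, *Emcn* and *Fabp4* (log2 fold changes 0.28 to 0.43). They lay below for *Vwf* (−0.49). Of all tested genes, 9.57% lay above and 8.59% below in this way. In edgeR, 4 of the 10 had an unadjusted p under 0.05, 3 higher and 1 lower. For 9 mural genes the sums were 2570 to 2925 CPM in WT and 2534 to 2988 CPM in CharmeKO, with 0 called. Of these 9 genes, 5 had a higher and 4 a lower fitted value in CharmeKO. *Cspg4*, *Notch3* and *Pdgfrb* were lower in each CharmeKO library than in any of WT, and *Tagln* was higher in each. The 6 erythroid genes summed to 26778 to 39216 CPM in WT and 24417 to 31749 CPM in CharmeKO, with 0 called, and *Hba-a1* was lower in each CharmeKO library (log2 fold change −0.46, edgeR adjusted p = 0.293). *Xist* was at 376 to 473 CPM in WT replicate 1 and CharmeKO replicates 1 and 2, and at 0 to 2.55 CPM in the other 3 libraries, in which *Ddx3y*, a Y-linked gene, was at 48.7 to 57.1 CPM. The split was not clean in CharmeKO replicate 1, where *Ddx3y* was at 2.06 CPM and the Y-linked *Eif2s3y* at 1.26 CPM. Both were at 0 in WT replicate 1 and CharmeKO replicate 2. The part of these differences in the values above was not tested, apart from the term for the *Xist* split, under which 0 of the 39 genes were called. In bulk RNA, fewer cells of a type cannot be told apart from less RNA in each cell.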

How the data were processed

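Poly(A) RNA of 3 WT and 3 CharmeKO native CF samples was sequenced in strand-specific libraries. The authors aligned the reads with STAR and deposited raw counts of uniquely mapped reads per gene on the matching strand, for Ensembl genes plus *Charme*. The submitters' processing notes list the builds GRCm39 and GRCh38, and the role of the second is not given in the sources used here. Reads shared by near-identical genes are lost by such counting.

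Counts were tested with edgeR 4.0.16 (quasi-likelihood test, TMM normalization, R 4.3.3) on genes that reached 10 counts in 2 or more of the 6 libraries, with genotype as the only term and Benjamini-Hochberg adjustment over the 15789 tested genes at a threshold of 0.05. DESeq2 1.42.0, which the authors used, was an alternative, beside other normalizations and filters, the replicate number as a block, each library left out, and, added after seeing the data, a term for the *Xist* split. The scripts were tested on simulated data. The edgeR standard errors were derived from the log2 fold change and the statistic of the quasi-likelihood test, and the intervals from these standard errors. An interval clear of 0 therefore restates an unadjusted p under 0.05 in that test. The methods take hearts from separate mice, which the labels do not state, so p-values measure the spread between these samples. Limits for a count of 0 are 3 counts and cover counting error only. Exon lengths came from a GRCm38 annotation, promoters from RefSeq (GRCm38.p6), and near-identical copies from blastn 2.17.0. Figures were drawn with matplotlib 3.10.9.

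The members and gene lists were chosen with earlier results of these data known. Genes are given in full if they passed the threshold, if the libraries of both genotypes did not overlap, or if they had the highest mean CPM of their role class. Of the other pathway genes, those past the threshold and the receptor genes *Ifnar1* and *Ifnar2* are given in full, and 1 gene of the rule is not reported here. *Ifng*, the *Ifit* ratios and the printed promoters were chosen after their values were seen, since the rule for promoters called for genes past the threshold and there were 0. Other genes given by library were chosen in the same way.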

Additional observations from a re-analysis of the deposited data

How the results depend on the processing

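The number of interferon-stimulated genes past the threshold was 0 in edgeR and 2 with DESeq2 and with no filter beyond 1 count (*Ifit2* and *Mx2* in both), and 0 under the other normalizations, the stricter filter, the term for the *Xist* split and in all fits without 1 library (0 to 0). With the replicate number as a block it was 1, *Ifit2* (log2 fold change −0.47, adjusted p = 0.0431 in edgeR). The numbers were not taken to pair the samples, as the correlations of same-numbered libraries were 0.216, 0.0535 and 0.161, although each library correlated best with its own number, a hint from the data and not from the design. For the other pathway genes the count was 1 in edgeR, 2 with DESeq2 and with the replicate block, 5 with no filter, 0 with 10 counts in 5 libraries and with the *Xist* term, and 0 to 1 without 1 library. Over all genes, calls rose from 131 to 394 with DESeq2, 699 with no filter and 302 with the block, and lay between 61 and 349 without 1 library.

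The median log2 fold change of the 39 genes was 0.019 to 0.058 under the other settings, and −0.017 (without WT replicate 3) to 0.069 without 1 library. The fitted value changed sign for *Ifnar2* (0.0044 with upper-quartile normalization, 0.0016 with the *Xist* term) and *Irf1* (0.024 with the *Xist* term). Without 1 library it also changed sign for *Ifi27* (−0.024 to 0.11), *Ifitm3* (−0.074 to 0.072), *Ifnar2* (−0.042 to 0.047), *Irf1* (−0.13 to 0.091), *Oasl2* (−0.11 to 0.023) and *Trim25* (−0.17 to 0.031). These 6 values are near 0, and the cause was not tested. *Ifit2* kept its sign in these fits (−0.55 to −0.40), as did *Mx2* (−0.59 to −0.38), *Oas2* (0.34 to 0.51), *Isg15* (0.21 to 0.35), *Stat2* (−0.22 to −0.15), *Rsad2* (−0.38 to −0.0042) and *Apobec3* (−0.85 to −0.61). The intervals of *Mx1* and *Oas3*, with 8 to 41 counts in each library, exceed 2-fold, as does that of *Ifitm1*, with 41 to 281 counts. The part of depth in this was not tested.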
